A study of Mus musculus with 12 samples.

Results

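The genes described here are 34 targets and regulators of NRF2, the transcription factor encoded by Nfe2l2, that serve detoxification, glutathione synthesis and thiol repair. They were chosen by symbol as a list of pathway genes, not by a threshold on measured values, but with earlier results of these data known. Shares of members set beside shares of all genes are therefore descriptive. All 34 were found, once each, among the 55401 gene rows of both deposited count tables. All 34 also passed the filter on low counts in both comparisons. The study measured bulk RNA-seq in tumor-associated macrophages (TAMs) sorted from subcutaneous B16 melanoma tumors, B16 being a pigmented mouse melanoma line. It asked how AMPK, an energy-sensing kinase, acts in TAMs and how TAMs resist death as tumors progress.

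The first comparison set 3 AMPK-KO samples (genotype AMPKfl/flLyz2cre/cre) against 3 WT samples (AMPKfl/fl), both from day 15 tumors. The floxed allele is that of the α1 catalytic subunit, Prkaa1, and Lyz2-Cre acts in the myeloid lineage at large, so it is not particular to TAMs. In 2 of the 3 AMPK-KO samples, replicates 2 and 3, the genotype field names the Cre as Lyz3 and Lyz4, which differs from their titles and was not resolved here, and groups follow the titles. The second comparison set 3 Late samples (tumor day 15) against 3 Early samples (tumor day 8), all labelled WT. No group received a treatment. The mice were on the C57BL/6 background and 5 weeks old when tumors were started. TAMs were defined in the study's methods as CD45+CD11b+Ly6C-Ly6G-F4/80+ cells, whereas its supplement also writes them as positive for Ly6C, and in 1 place for Ly6G, so the Ly6C and Ly6G gates of the sort are not settled. Ly6c2, a gene of the Ly6C antigen, was measured at 17.5, 17.8 and 17.5 CPM (counts scaled to a library of a fixed size) in WT, 37.1, 39.8 and 43.6 in AMPK-KO, 31.7, 30.0 and 28.7 in Early and 6.83, 8.88 and 9.47 in Late. Whether animals were pooled for a sample is not given in the sources used here.

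In unstressed cells KEAP1 holds NRF2 in the cytoplasm and directs it to the proteasome. Oxidants and electrophiles modify cysteines of KEAP1, whereupon NRF2 accumulates, pairs with a small MAF protein and binds antioxidant response elements (AREs) near its target genes, while BACH1 occupies the same elements as a repressor. The targets supply cystine and glutathione, keep thioredoxin reduced, and conjugate, reduce or export reactive compounds. In macrophages the pathway is known for protection against oxidant and lipid peroxide damage and for restraint of inflammatory genes.

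Because AREs are the sequences through which NRF2 acts, the promoter windows of the members were searched for the ARE core TGACNNNGC on both strands. RefSeq windows (build GRCm38.p6) were at hand for 29 of the 34 members, and the 250 bases before each start site were scanned. The core occurred in 7 of these 29 members (24.1%) and in 3112 of the 27025 genes of the window table (11.5%). Those members were Gsta3, Nfe2l2, Gclm, Ugdh, Mgst1, Txnrd1 (at 1 of its 3 start sites) and Mafg. None of their matches overlapped an AP-1 site, TGACTCA, which is a near relative of the core and was itself present in 4 of the members (13.8%) and 5.16% of the genes. The stretches around the matches are shown for 3 members that were lower in AMPK-KO (Gclm, Txnrd1, Mafg) and for Ugdh, which was called in neither comparison and held 2 matches. Those of Mgst1, also lower in AMPK-KO, and of Gsta3 and Nfe2l2, called in neither comparison, are not shown. Each stretch shown is read 5′ to 3′ on the strand of the gene, with the matched core in capitals. Where the capitals begin with GC, the core is read on the opposite strand. The Gclm stretch lies at chr3:122245398-122245456 (+), that of Txnrd1 at chr10:82859089-82859147 (+), that of Mafg at chr11:120633736-120633794 (-) and that of Ugdh at chr5:65435903-65435999 (-).
Gclm: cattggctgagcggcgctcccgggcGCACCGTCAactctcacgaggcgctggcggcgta
Txnrd1: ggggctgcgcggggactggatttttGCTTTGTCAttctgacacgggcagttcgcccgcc
Mafg: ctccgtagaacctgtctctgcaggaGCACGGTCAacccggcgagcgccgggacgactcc
Ugdh: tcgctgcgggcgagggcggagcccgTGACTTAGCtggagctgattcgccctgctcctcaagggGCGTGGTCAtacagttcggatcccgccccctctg
The windows of Akr1b8, Gstm1, Aox1, Srxn1 and Slc7a11 held no match to these letters. That says nothing about elements farther away, or about elements in the same windows whose letters depart from the core searched. Gclc, Gsr, Gsta4, Akr1b3 and Abcc1 were not searched.

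Library totals ranged from 71019494 to 84470374 counts. Prkaa1 was at 68.8, 62.8 and 63.3 CPM in WT and 47.0, 40.9 and 40.8 in AMPK-KO, and was called lower (log2 fold change -0.60 ± 0.07, SE). Lyz2, whose locus drives the Cre, stood at 9.16 to 13.5 CPM in all WT and AMPK-KO libraries but at 1092 to 3009 CPM in the Early and Late libraries. The Cre insertion disrupts Lyz2, so a low level is known from cre/cre mice, but the WT libraries were as low as those of AMPK-KO, which goes against the WT label as far as this gene goes and was not resolved here. Transcripts of 4 Y-linked genes summed to 9229 to 12183 counts in WT and AMPK-KO and 3435 to 4035 in Early, but to 0 to 4 in Late, so that sex and tumor stage cannot be told apart. The methods name female mice, at least for the C57BL/6J animals. The Late libraries fit that, while the Y-linked counts of the Early libraries go against it, as do those of WT and AMPK-KO where the wording covers them. Macrophage markers were abundant in every library (summed level 9381 to 13480 CPM). In the AMPK-KO comparison, 6 of 6 markers of resident-type scavenger macrophages were lower (738 to 816 summed CPM in WT, 420.3 to 438 in AMPK-KO), as were 6 of 7 melanoma markers (998 to 999 and 676 to 716), while 3 of 4 monocyte, 5 of 6 T cell, 6 of 6 NK cell and 6 of 6 conventional dendritic cell markers were higher. In the stage comparison, 4 of 6 scavenger markers (322 to 370 summed CPM in Early, 149 to 160 in Late), 4 of 4 monocyte markers (484 to 560 and 175 to 209) and 5 of 7 melanoma markers (1663 to 1807 and 767 to 1203) were lower. Of all genes tested, 9.78% were lower and 11.3% higher in AMPK-KO, and 4.88% were lower and 4.31% higher in Late. In bulk samples fewer cells of a type and less RNA per cell cannot be told apart, and the part of the marker shifts in the results below was not tested.

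The members spanned a wide range of levels. Per kilobase of exon, the scale on which genes can be compared with each other, the aldehyde reductase gene Akr1a1 was the most abundant in WT at 343 ± 17.3 CPM per kb (SD, n = 3), ahead of thioredoxin Txn1 at 261 ± 28.3 and the autophagy receptor Sqstm1 at 234 ± 6.18. The libraries of Txn1 and Sqstm1 overlapped on this scale in WT, so their order was not resolved, whereas Akr1a1 stood above both. The same 4 genes, Akr1a1, Txn1, Sqstm1 and the amino acid transporter chain Slc3a2, headed the order in all 4 groups. At the low end, the aldehyde oxidase gene Aox1 had 0.282 CPM per kb in WT, 0.0955 in AMPK-KO, 0.201 in Early and 0.119 in Late. The cystine transporter gene Slc7a11 (1.28 in WT) and the classical NRF2 target Nqo1, a quinone reductase (1.49 in WT), were also among the 3 lowest in WT.

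**Figure D1:**
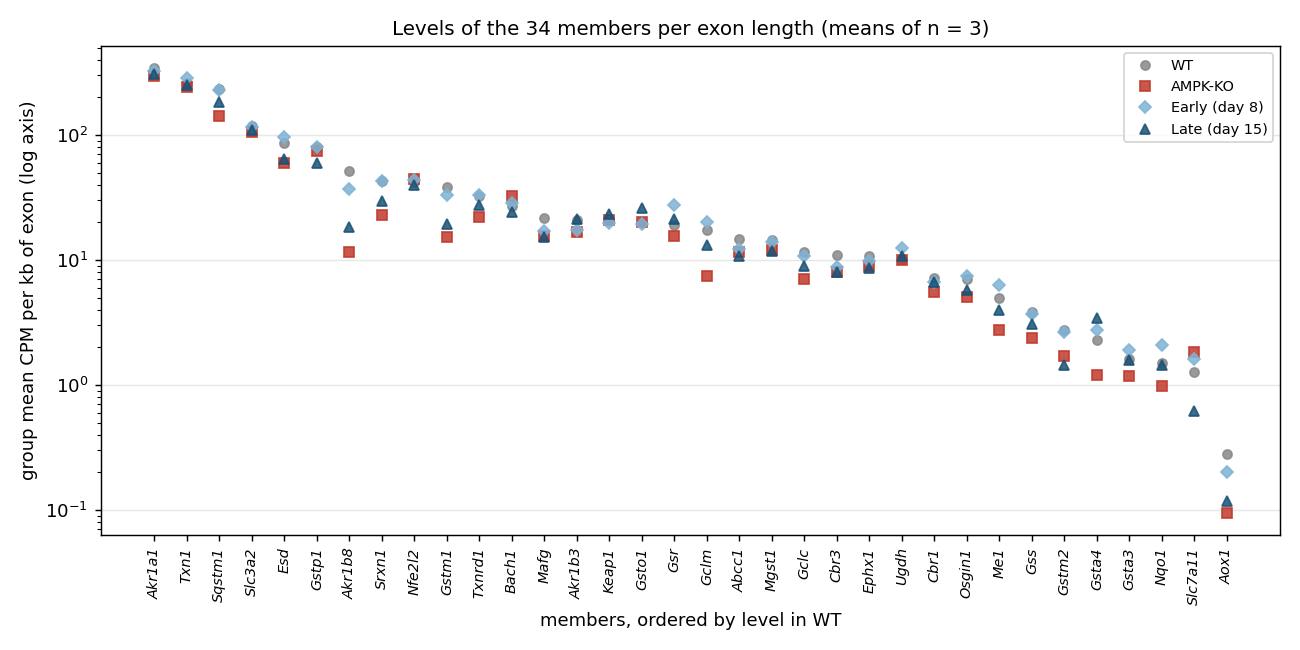
Mean level of each of the 34 members per kilobase of exon (CPM per kb, log axis, means of 3 samples per group), ordered by the level in WT, with WT as grey circles, AMPK-KO as red squares, Early as light diamonds and Late as dark triangles. Akr1a1 tops every group (343 in WT) and Aox1 closes every group (0.282 in WT), while Akr1b8, Gclm and Gstm1 show wide gaps between WT and AMPK-KO.

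Transcript levels were lower in AMPK-KO than in WT TAMs across most of the pathway. Of the 34 members, 23 (67.6%) fell in AMPK-KO against a background of 9.78% of the 17532 genes tested, and 2 rose, Slc7a11 and Bach1, against a background of 11.3%. The WT and AMPK-KO libraries did not overlap for 28 of the 34 members (82.4%), where 37.2% of all genes tested did not overlap. The median log2 fold change of the members was -0.44, beside -0.004 for all genes tested, and single members ranged from -2.15 to 0.52. A change beyond 2-fold was reached by 4 members, Akr1b8, Aox1, Gstm1 and Gclm, all lower, where 1.28% of all genes tested were called lower and 2.05% higher by that rule. Summed over the 34 members, the level was 4631, 4872 and 4766 CPM in WT and 3668, 3720 and 3828 CPM in AMPK-KO. Every AMPK-KO library thus lay below every WT library. Abundant members such as Akr1a1 and Sqstm1 weigh most in this sum. The mean log2 CPM of the members (0.5 added), which weighs them alike, was 5.714, 5.806 and 5.769 in WT. It was 5.293, 5.295 and 5.301 in AMPK-KO. The calls rest on edgeR's quasi-likelihood test with Benjamini-Hochberg adjustment over all genes tested, and 16 of the 25 stood under every alternative that kept this threshold. The number lower dropped to 15 when WT replicate 3 or AMPK-KO replicate 2 was left out, and the calls of Bach1, Slc3a2, Gsr, Gsta4, Gstm2, Mgst1, Akr1a1, Cbr1 and Ephx1 were lost under at least 1 alternative, with their sign kept.

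**Figure D2:**
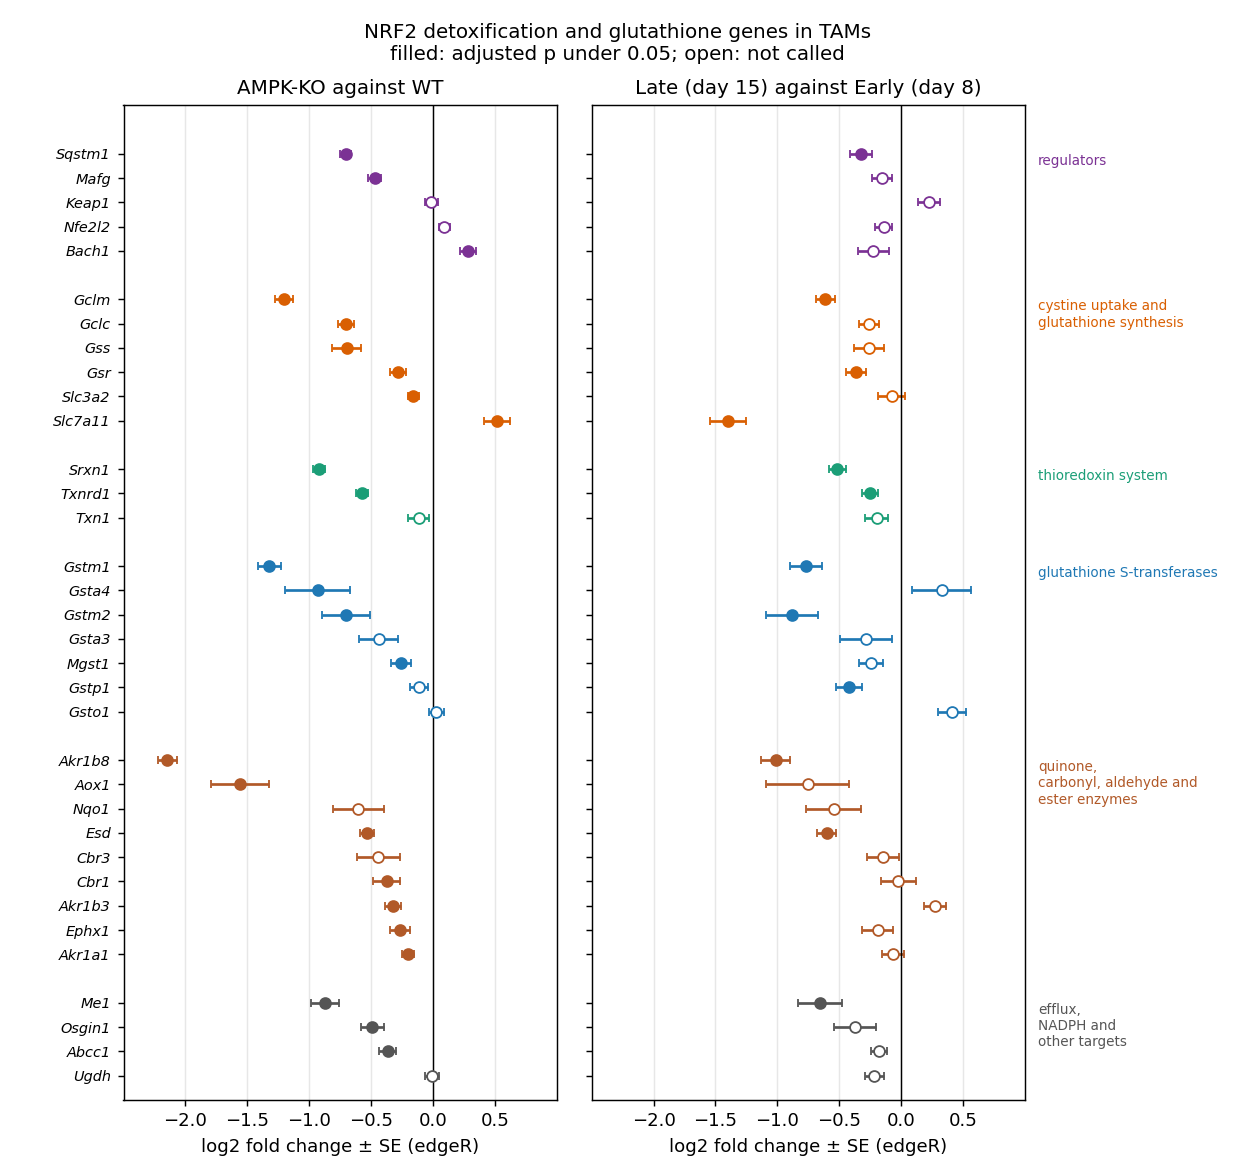
Log2 fold change ± SE of each member (edgeR, 3 against 3 samples), grouped by role, for AMPK-KO against WT (left) and Late against Early (right), with filled points for adjusted p under 0.05 and open points for members not called. In AMPK-KO 23 members are called lower and 2 higher, and in Late 12 are called lower and 0 higher.

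Of the 5 regulators of the pathway 2 fell (40.0%), 1 rose (20.0%) and 2 were not called, where 9.78% of all genes tested fell and 11.3% rose. Whether the shares of so small a group differ from these was not tested. Nfe2l2 itself was at 160.1, 159.7 and 158 CPM in WT and 172, 165 and 171 in AMPK-KO. Every AMPK-KO library was slightly above every WT library, yet the difference was not called (log2 fold change 0.09 ± 0.05, adjusted p = 0.209). Keap1, the NRF2 inhibitor, was at 97.04, 103 and 96.6 CPM in WT and 95.2, 99.4 and 98.9 in AMPK-KO, with overlapping groups (-0.01 ± 0.05, adjusted p = 0.885). These transcript levels do not report the NRF2 protein, whose amount is set largely by degradation. Bach1, the repressor that competes for AREs, was at 178, 154 and 167 CPM in WT and 205, 210.4 and 189 in AMPK-KO. The groups were apart and Bach1 rose (0.28 ± 0.06, adjusted p = 0.0112). Mafg, a small MAF partner of both NRF2 and BACH1, was at 126, 119 and 121 CPM in WT and 85.9, 87.6 and 90.5 in AMPK-KO. It fell by 27.9% (adjusted p = 1.05e-04), with all AMPK-KO libraries well under the lowest WT library. Sqstm1 encodes p62, which binds KEAP1 and is itself an NRF2 target, and was at 760.4, 799.9 and 791 CPM in WT and 466, 486 and 489.6 in AMPK-KO. It fell by 38.7%, the largest drop among the regulators (-0.71 ± 0.04, adjusted p = 1.99e-06).

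Among the 6 genes of cystine uptake and glutathione synthesis, 5 fell (83.3%, beside 9.78% of all genes tested) and 1 rose (16.7%, beside 11.3%) in AMPK-KO. The glutamate-cysteine ligase catalyses the rate-limiting step of glutathione synthesis, and its modifier subunit Gclm (GRCm38, chr3:122245557-122270732) was at 101, 110.0 and 115 CPM in WT and 46.8, 51.2 and 43.7 in AMPK-KO. All AMPK-KO libraries were far below the lowest WT library, and Gclm fell by 56.6% (-1.20 ± 0.07, adjusted p = 2.09e-06). The catalytic subunit Gclc was at 44.2, 43.3 and 42.3 CPM in WT and 25.7, 27.8 and 26.3 in AMPK-KO, a tight separation in which it fell by 38.5% (adjusted p = 3.73e-05). Gss, the glutathione synthetase that completes the tripeptide, was at 22.1, 23.9 and 22.6 CPM in WT and 14.00, 11.8 and 16.5 in AMPK-KO and fell by 38.4% (adjusted p = 0.00201). Both steps of the synthesis were thus lower at the transcript level, without overlap between the groups. Gsr, the reductase that regenerates glutathione from its disulfide, was at 49.6, 53.4 and 53.7 CPM in WT and 41.1, 42.8 and 45.2 in AMPK-KO and fell by 17.7% (adjusted p = 0.0105).

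The cystine-glutamate antiporter behaved otherwise. Slc7a11 (xCT, chr3:49892526-50443614) was at 20.2, 16.7 and 16.5 CPM in WT and 27.0, 26.4 and 23.1 in AMPK-KO. All AMPK-KO libraries lay above all WT libraries, and Slc7a11 rose (0.52 ± 0.10, adjusted p = 0.00555), 1 of only 2 members to do so. Its heavy chain partner Slc3a2, which also serves other amino acid transporters, was at 411, 421 and 409.9 CPM in WT and 363, 363 and 385 in AMPK-KO. The groups were apart by little, and Slc3a2 fell by 10.6% (-0.16 ± 0.04, adjusted p = 0.0256).

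In the thioredoxin system, the sulfiredoxin Srxn1, which repairs overoxidized peroxiredoxins, was at 123, 118 and 124 CPM in WT and 64.6, 63.4 and 64.6 in AMPK-KO. The libraries within each group were close and the groups far apart, and Srxn1 fell by 47.3% (-0.92 ± 0.05, adjusted p = 9.56e-07). Txnrd1, the NADPH-dependent reductase of thioredoxin, was at 232, 221 and 239 CPM in WT and 155, 159 and 152 in AMPK-KO and fell by 32.7% (adjusted p = 2.27e-05). Txn1, thioredoxin itself, overlapped between the groups and was not called (-0.12 ± 0.08, adjusted p = 0.370).

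Glutathione S-transferases attach glutathione to electrophiles, and 4 of the 7 fell in AMPK-KO (57.1%, beside 9.78% of all genes tested). None rose, where 11.3% of all genes tested rose. Gstm1 (chr3:108012255-108017973) was at 53.8, 60.0 and 54.6 CPM in WT and 22.5, 19.5 and 25.4 in AMPK-KO. Every AMPK-KO library was far below the lowest WT library, and Gstm1 fell by 60.0% (-1.32 ± 0.10, adjusted p = 6.72e-06). Close copies share 18.9% of the 50-base words of its transcripts, so part of its count could have been split by the authors' counting. Its nearest pseudogene, Gstm2-ps1, did not exceed 0.722 CPM in any library. The member Gstm2, which also shares words with it, was at 2.72 to 5.63 CPM in the WT and AMPK-KO libraries. The levels of Gm8834 and Gm6665, which share words as well, were not looked up. The alpha-class Gsta4, which favours lipid peroxidation products, was low and fell (-0.93 ± 0.26, adjusted p = 0.0293), as did Gstm2 (-0.70 ± 0.19, adjusted p = 0.0256) and the membrane-bound Mgst1 (-0.26 ± 0.08, adjusted p = 0.049). Gsta3 (adjusted p = 0.0724), Gstp1 (0.304) and Gsto1 (0.815) were not called, with log2 fold changes of -0.44, -0.12 and 0.03. Gstp1 is the least certain of them, because 33.7% of its 50-base words recur in copies of the gene, chiefly Gstp2, itself at 21.8 to 33.5 CPM in these libraries.

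Of the 9 enzymes that act on quinones, carbonyls, aldehydes and esters, 7 fell (77.8%, beside 9.78% of all genes tested). All 9 had negative log2 fold changes, as had 8855 of the 17532 genes tested. Akr1b8 (chr6:34354119-34368463), an aldo-keto reductase of the aldose reductase type, was at 73.3, 84.1 and 73.7 CPM in WT and 16.7, 17.0 and 18.4 in AMPK-KO. It had the largest change of all 34 members and fell by 77.4% (-2.15 ± 0.08, adjusted p = 8.38e-08). Aox1, which oxidizes aldehydes and heterocycles, was the least abundant member per kilobase of exon, at 2.55, 2.59 and 2.20 CPM in WT and 0.813, 0.922 and 0.755 in AMPK-KO. Its groups did not overlap in spite of the low level, and Aox1 fell by 66.0% (-1.56 ± 0.23, adjusted p = 8.93e-04). The esterase Esd, which hydrolyses S-formylglutathione, was at 273, 308 and 297 CPM in WT and 202, 193 and 212 in AMPK-KO and fell by 30.9% (adjusted p = 1.10e-04). Smaller falls were measured for the aldose reductase Akr1b3 (log2 fold change -0.33), the carbonyl reductase Cbr1 (-0.37), the epoxide hydrolase Ephx1 (-0.27) and Akr1a1 (-0.20). Nqo1, at 2.44, 2.19 and 2.32 CPM in WT and 1.61, 1.53 and 1.42 in AMPK-KO, did not overlap between the groups but missed the threshold (-0.60 ± 0.20, adjusted p = 0.062). Cbr3 was not called either (-0.44 ± 0.17, adjusted p = 0.103).

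The remaining members serve NADPH supply, export and other ends. Me1, the malic enzyme that makes NADPH in the cytosol, was at 20.7, 19.6 and 17.5 CPM in WT and 10.04, 11.8 and 9.68 in AMPK-KO, without overlap, and fell by 45.4% (adjusted p = 2.94e-04). It shares 22.9% of its 50-base words with pseudogenes, which themselves stayed at or under 0.302 CPM. Abcc1, an exporter of glutathione conjugates, fell (-0.37 ± 0.07, adjusted p = 0.00375), and so did the oxidative stress growth inhibitor Osgin1 (-0.49 ± 0.09, adjusted p = 0.00385). Ugdh, which makes the glucuronidation substrate UDP-glucuronate, overlapped between the groups (-0.01 ± 0.06, adjusted p = 0.956).

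**Figure D3:**
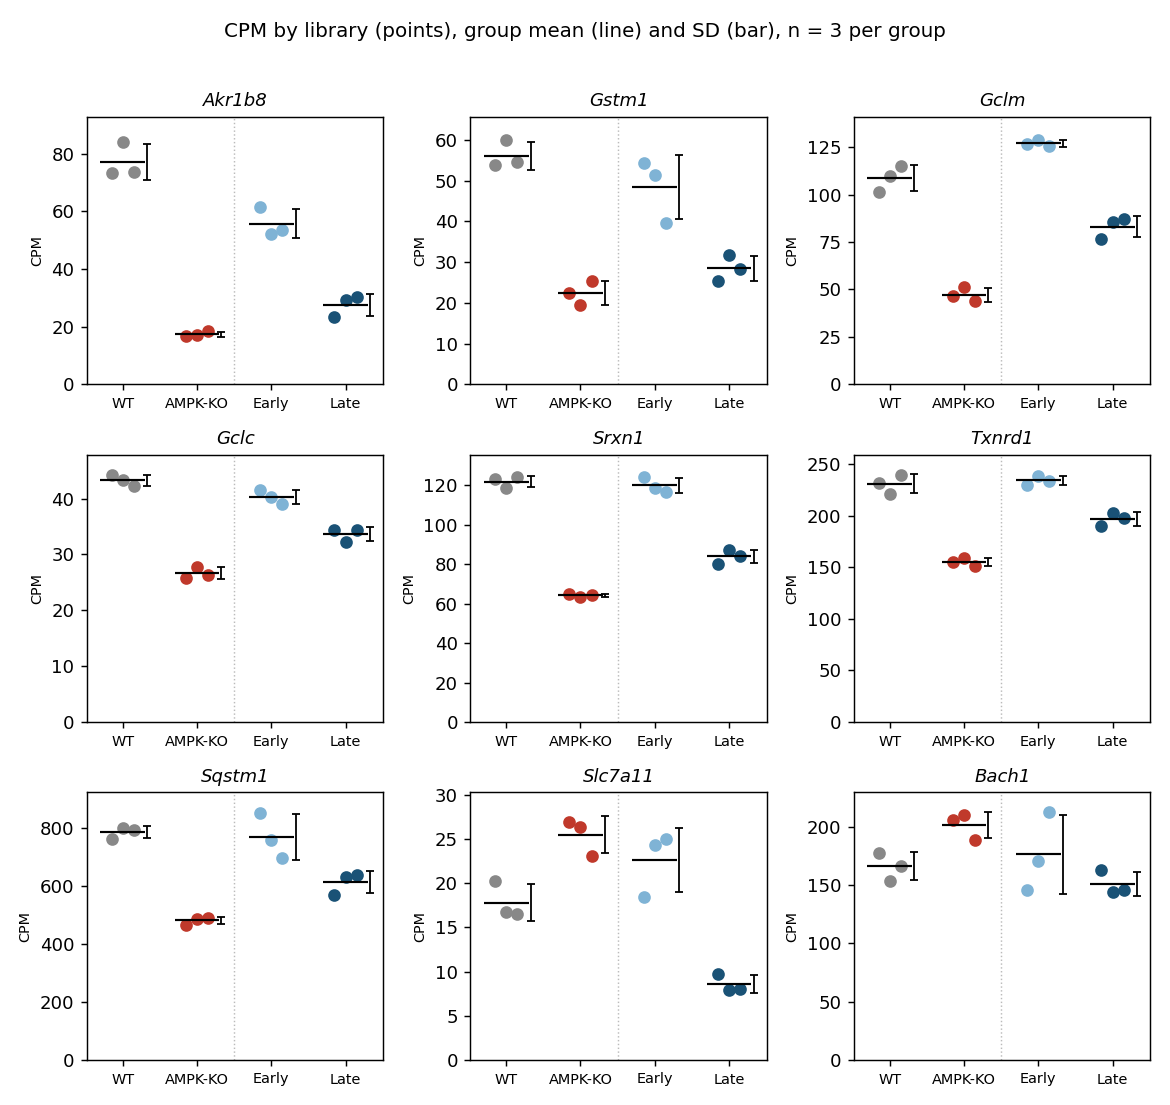
CPM of 9 members in every library (points), with the group mean (line) and SD (bar) for n = 3 samples per group, each axis starting at 0. The dotted line parts the AMPK-KO comparison from the stage comparison, whose tables were scaled separately. Akr1b8 lies at 16.7 to 18.4 CPM in AMPK-KO under 73.3 to 84.1 in WT, and Slc7a11 is above WT in AMPK-KO but below Early in Late.

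With tumor stage, members were again lower more often than higher. In Late against Early, 12 of the 34 (35.3%) fell, where 4.88% of the 17630 genes tested fell, and 0 rose, where 4.31% rose. Without adjustment, 18 members were lower and 3 higher (Keap1, Gsto1 and Akr1b3) at a p under 0.05, and DESeq2 called 2 members higher. The shares of all genes under these rules were not computed, so these counts have no background beside them. The groups did not overlap for 22 members (64.7%), against 31.2% of all genes tested. The median log2 fold change of the members was -0.26, beside 0.003 for all genes tested, and 2 members, Slc7a11 and Akr1b8, passed 2-fold, where 1.26% of genes were called lower and 0.601% higher by that rule. Summed over the members, the level was 5020.1, 4673 and 4402 CPM in Early and 3891, 4087 and 4142 CPM in Late. Every Late library was under every Early library. The mean log2 CPM of the members (0.5 added) was 5.808, 5.778 and 5.71 in Early and 5.37, 5.476 and 5.531 in Late. Of the 12 calls, 6 stood under every alternative that kept the threshold, those of Slc7a11, Gclm, Srxn1, Gstm1, Akr1b8 and Esd. The number lower went from 12 to 6 when Early replicate 2 or any 1 Late library was left out, and to 7 without the low-count filter.

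The regulators were mostly not called with stage. Nfe2l2 was at 156, 169 and 175 CPM in Early and 153, 152 and 149 in Late (-0.14 ± 0.07, adjusted p = 0.251). Keap1 was at 105, 86.7 and 87.8 CPM in Early and 110.2, 109 and 107 in Late (0.22 ± 0.09, adjusted p = 0.143). Both pairs of groups were narrowly apart, in opposite directions. Bach1 was at 146, 170.4 and 213 CPM in Early and 163, 144 and 145 in Late, with overlap (-0.23 ± 0.12, adjusted p = 0.307). Mafg, at 102, 96.1 and 90.8 CPM in Early and 93.0, 81.5 and 84.5 in Late, overlapped as well (adjusted p = 0.266). Sqstm1 was the exception, at 851, 759.6 and 695 CPM in Early and 568, 631 and 638 in Late, and fell by 20.3% (adjusted p = 0.0474).

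Slc7a11 had the largest stage difference among the members. It was at 18.4, 24.3 and 25.04 CPM in Early and 9.77, 7.89 and 8.03 in Late. No Late library came near an Early one, and Slc7a11 fell by 62.1% (-1.40 ± 0.15, adjusted p = 4.63e-04). Gclm was at 127, 129 and 126 CPM in Early and 76.8, 85.4 and 87.1 in Late and fell by 34.6% (adjusted p = 9.43e-04). Gsr was at 72.6, 77.3 and 78.5 CPM in Early and 54.4, 61.9 and 60.9 in Late and fell by 22.4% (adjusted p = 0.0211). The Early and Late libraries of both genes were apart. Gclc, at 41.5, 40.2 and 39.1 CPM in Early and 34.4, 32.2 and 34.4 in Late, was not called in spite of separate groups (-0.26 ± 0.08, adjusted p = 0.0787). Gss, at 25.4, 20.8 and 19.0 CPM in Early and 17.6, 18.6 and 18.1 in Late, was not called either (adjusted p = 0.219). Slc3a2 was at 479, 411 and 343 CPM in Early and 383, 381 and 406 in Late, with wide overlap (adjusted p = 0.729). Of the transporter pair, then, the cystine-specific chain fell with stage and its heavy chain partner was not called.

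Among the enzymes, Akr1b8 was at 61.4, 52.1 and 53.6 CPM in Early and 23.3, 29.3 and 30.3 in Late and fell by 50.4% (-1.01 ± 0.12, adjusted p = 6.92e-04). Esd was at 337, 312 and 332 CPM in Early and 199.9, 219.8 and 227 in Late and fell by 34.1% (adjusted p = 0.00103). Srxn1 was at 124, 119 and 117 CPM in Early and 80.3, 87.2 and 84.2 in Late and fell by 30.0% (adjusted p = 0.00186). In all 3 genes the lowest Early library exceeded the highest Late library by a clear margin. Gstm1 was at 54.4, 51.5 and 39.5 CPM in Early and 25.4, 31.7 and 28.2 in Late and fell by 41.3% (adjusted p = 0.00659). Gstm2, at 5.24, 4.05 and 4.06 CPM in Early and 1.95, 2.41 and 2.88 in Late, fell by 45.7% (adjusted p = 0.0309). Gstp1, at 137, 119 and 117 CPM in Early and 80.4, 94.8 and 103 in Late, fell by 25.4% (adjusted p = 0.0325). These transferases were separate between the stages, with the reservation given above for counts shared with gene copies. Txnrd1 was at 229.7, 239 and 234 CPM in Early and 189.6, 203 and 198 in Late, a narrow separation in which it fell by 16.0% (adjusted p = 0.0418). Me1 was at 24.0, 23.7 and 25.6 CPM in Early and 10.8, 18.3 and 17.3 in Late, lowest in Late replicate 1, and fell by 36.6% (adjusted p = 0.0485).

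Some members had positive or flat stage values. Gsto1, an omega-class transferase with reductase activity, had the highest log2 fold change among the members and just missed the threshold (0.41 ± 0.11, adjusted p = 0.0526). Akr1b3 (0.28, adjusted p = 0.0831) and Gsta4 (0.33, adjusted p = 0.449) were the others above 0 beside Keap1. Aox1 was at 1.43, 2.11 and 1.72 CPM in Early and 0.964, 0.699 and 1.44 in Late, with overlap at these low levels (-0.76 ± 0.33, adjusted p = 0.196). The remaining members not called, Txn1, Gsta3, Mgst1, Nqo1, Akr1a1, Cbr1, Cbr3, Ephx1, Abcc1, Ugdh and Osgin1, had log2 fold changes from -0.55 (Nqo1, adjusted p = 0.161) to -0.02 (Cbr1, adjusted p = 0.947).

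Set side by side, the comparisons, which share no samples, called 10 members lower in both, namely Akr1b8, Esd, Gclm, Gsr, Gstm1, Gstm2, Me1, Sqstm1, Srxn1 and Txnrd1. These were 43.5% of the 23 members lower in AMPK-KO and 83.3% of the 12 lower in Late. Of them, Akr1b8, Esd, Gclm, Gstm1 and Srxn1 were called in both comparisons under every alternative that kept the threshold. The Late calls of Gsr, Gstm2, Me1, Sqstm1 and Txnrd1 were lost under at least 1 alternative. Over the 16812 genes tested in both, 259 were lower in both, which is 15.2% of the genes lower in AMPK-KO and 30.3% of those lower in Late. The sign of the log2 fold change was the same for 28 of the 34 members (82.4%), beside 53.5% of all genes tested in both, and negative in both for 27 (79.4%), beside 27.2%. Slc7a11 was the one member called in opposite directions, 0.52 in AMPK-KO and -1.40 in Late. The other 5 with opposite signs, Nfe2l2, Keap1, Bach1, Gsta4 and Akr1b3, were called in at most 1 comparison. Called in neither were Nfe2l2, Keap1, Txn1, Gsta3, Gsto1, Nqo1, Cbr3 and Ugdh. Whether the fold changes of a member differed between the comparisons was not tested.

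**Figure D4:**
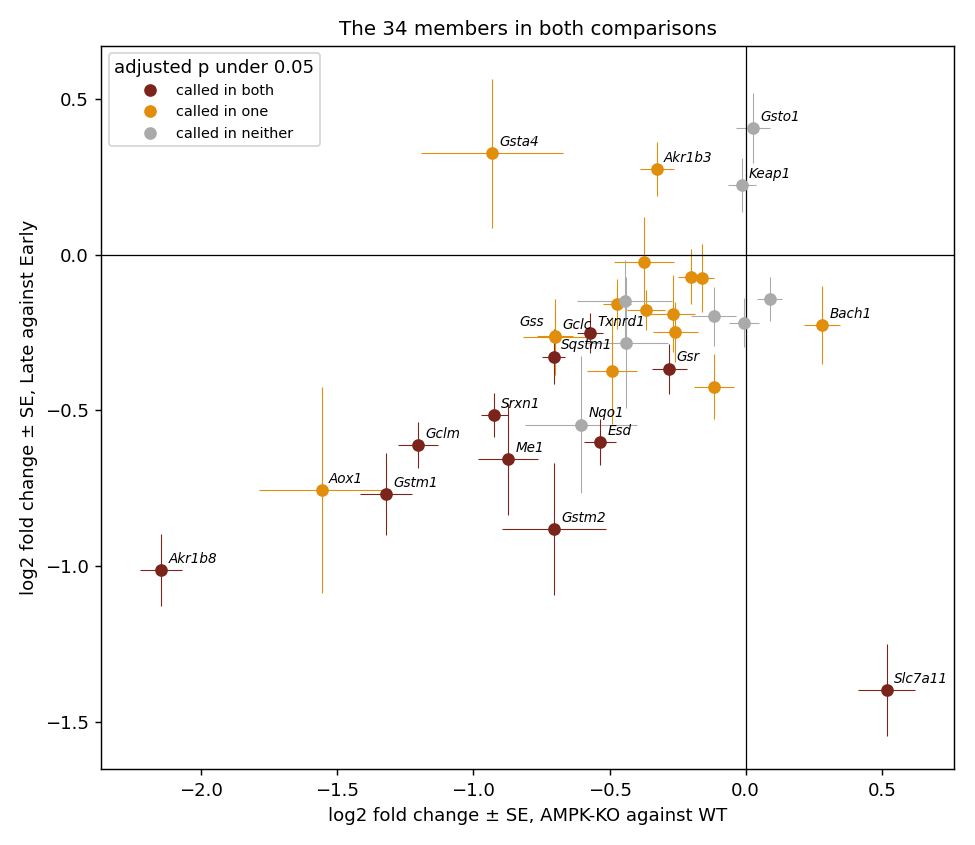
Log2 fold change ± SE of each member in AMPK-KO against WT (x axis) and in Late against Early (y axis), coloured by whether edgeR called it in both, one or neither comparison. Akr1b8 lies at -2.15 and -1.01, and Slc7a11 stands alone at 0.52 and -1.40.

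Other genes of the NRF2 pathway were followed as a list of 46, of which 43 passed the filter in each comparison. In AMPK-KO 20 fell (46.5%, beside 9.78% of all genes tested) and 5 rose, namely Maff, Txnip, Glrx, Abcc4 and Abcg2 (11.6%, beside 11.3%), with a median log2 fold change of -0.22. In Late 8 fell (18.6%, beside 4.88%) and 1 rose, Slc7a5 (2.33%, beside 4.31%), with a median of -0.14. These 6 were named after their values were seen. The iron exporter Slc40a1 (-2.41 in AMPK-KO and -1.58 in Late), the heme oxygenase Hmox1 (-1.36 and -0.73), the prostaglandin reductase Ptgr1 (-1.19 and -0.78) and the lipid receptor Cd36 (-0.64 and -0.72) were lower in both comparisons. Pir (-1.24 ± 0.23) and the glutathione hydrolase Ggt1 (-1.17 ± 0.34) also passed 2-fold in AMPK-KO, and the heme transporter Slc48a1 was lower there (-0.70 ± 0.05). The peroxiredoxin Prdx6 was lower in Late (-0.72 ± 0.07, adjusted p = 3.34e-04).

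A further 34 glutathione S-transferases and related reductases were counted in the same way. Of the 27 tested in AMPK-KO 6 fell (22.2%, beside 9.78% of all genes tested) and 2 rose (7.41%, beside 11.3%), with a median of -0.17. Of the 26 tested in Late 3 fell (11.5%, beside 4.88%) and 1 rose (3.85%, beside 4.31%), with a median of 0.095. The carbonyl reductase Cbr2 (-1.01 in AMPK-KO and -1.61 in Late) and the alpha-class transferase Gsta1 (-1.01 and -0.94) were lower in both. The theta-class transferases Gstt1 (1.02 ± 0.15, adjusted p = 8.49e-04) and Gstt3 (0.59 ± 0.13) were higher in AMPK-KO, and Akr7a5 was lower there (-0.40 ± 0.10). Hpgds, the prostaglandin D synthase of hematopoietic cells, was lower in AMPK-KO (-0.32) and higher in Late (0.44). Gstp2 was lower in Late (-0.44 ± 0.12, adjusted p = 0.0475) and shares sequence with Gstp1. Akr1b10 had 0.28 ± 0.09 in Late (adjusted p = 0.0932).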

How the data were processed

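Bulk RNA-seq counts of 12 TAM samples, 3 per group, were analysed. The authors sorted the cells, aligned the reads (HISAT2), assigned them to genes (featureCounts) and deposited the raw counts as 1 table per comparison, each with 55401 gene rows and no unused column. Tool versions, the strand setting and the handling of multiply mapped reads are not given in the sources used here, so genes that overlap or have close copies are less certain. The labels name build mm10, and 54349 identifiers match GENCODE M21 (GRCm38) down to the version, as do those of all 34 members, from which positions and exon lengths were taken.

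Each table was fitted on its own with edgeR 4.0.16 in R 4.3.3 (filterByExpr, TMM, glmQLFit, glmQLFTest, two-sided, no covariates), with Benjamini-Hochberg adjustment over all genes tested. Genes with adjusted p under 0.05 were called higher or lower. The SE was taken as the absolute log2 fold change divided by the square root of the F statistic. CPM were scaled with TMM library sizes, and percent changes were computed from the fitted fold changes. Totals were 71019494 to 84470374 counts per library, and counting error weighed most on the least abundant members. The labels do not say that replicates came from separate animals, and p-values then measure only the spread between these samples.

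The members, the gene lists and the markers were chosen with earlier results of these data known. All members were named, with values in every library for the regulators, the glutathione genes, members past 2-fold and the 10 smallest adjusted p-values of each comparison. Members past those were given by value or range. Of the other pathway genes, the rule names those past 2-fold or with the 5 smallest adjusted p-values of their list. Alternatives were DESeq2 1.42.0, RLE factors or upper-quartile factors in edgeR, no filter, at least 10 counts in every library, a 2-fold threshold, the study's rule (DESeq2 unadjusted p under 0.05 and absolute log2 fold change above 1), a replicate block and the removal of each library. The edgeR and DESeq2 steps were tested on simulated counts. Plots used matplotlib 3.10.9, with tables handled in pandas 2.3.3 (Python 3.11.15).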

Additional observations from a re-analysis of the deposited data

How the results depend on the processing

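RLE and upper-quartile factors changed no call among the 34 members in either comparison, and no scaling put the median over all genes farther from 0 than -0.0175 (log2). In AMPK-KO the members lower numbered 23, or 15 to 24 with a library left out (15 without WT replicate 3 or AMPK-KO replicate 2), and those higher numbered 2, or 1 to 2 (Bach1 was lost without WT replicate 3 or AMPK-KO replicate 2). A 2-fold threshold and the study's rule each gave 4 lower and 0 higher. By the 2-fold threshold 1.28% of all genes tested were lower and 2.05% higher in AMPK-KO, and 1.26% and 0.601% in Late. For the other alternatives the share of all genes was not computed. Their counts show only how the calls among the members moved. In Late the members lower numbered 12, or 6 to 13 with a library left out and 7 with no filter, and a 2-fold threshold and the study's rule each gave 2. The members higher in Late numbered 0, or 0 to 3 with a library left out (Keap1, Gsto1 and Akr1b3 without Early replicate 1), 2 with DESeq2 (Gsto1 and Akr1b3) and 1 with at least 10 counts in every library (Gsto1). Sign changes befell only members not called, each with a library left out. In AMPK-KO these log2 fold changes ranged from -0.035 to 0.016 for Keap1, from -0.006 to 0.044 for Gsto1 and from -0.033 to 0.023 for Ugdh. In Late they ranged from -0.191 to 0.051 for Slc3a2, from -0.149 to 0.029 for Akr1a1 and from -0.17 to 0.112 for Cbr1, each positive without Early replicate 1. The cause of these changes was not tested. Same-numbered samples did not deviate together (correlations of deviations from -0.027 to 0.16), so the numbers were not taken as pairs, and not every sample correlated best with its own number. With the replicate number as a block, 22 members were lower and 2 higher in AMPK-KO, and 8 lower and 0 higher in Late. With 3 samples a group, members at low levels such as Aox1, Nqo1, Gsta4 and Gstm2 had the widest errors.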

Other observations

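Of all genes tested, 9.78% were lower and 11.3% higher in AMPK-KO, and 4.88% were lower and 4.31% higher in Late. Beside these shares, the other marker lists, counted in the same way, moved as follows. A single marker called in a list is not read as a shift of its cell type. Of the 9 macrophage markers, 2 were higher and 1 lower in AMPK-KO, and 1 was higher in Late. In AMPK-KO, 3 of 5 neutrophil and 5 of 6 fibroblast markers tested were higher, 4 of 5 B cell markers were lower with 1 higher, 2 of 3 erythroid markers were lower, and 1 of 4 endothelial markers was higher with 1 lower. In Late, 4 of 6 NK cell, 2 of 4 neutrophil, 3 of 6 fibroblast, 1 of 5 endothelial and 1 of 3 erythroid markers were lower, 2 of 6 T cell and 3 of 5 B cell markers were higher, and 1 of 6 conventional dendritic cell markers was higher with 1 lower. In neither comparison was a plasmacytoid dendritic cell marker (3 tested) or a basophil or mast cell marker (1 tested) called. The neutrophil marker Ly6g had no counts in any WT or AMPK-KO library. Called in both comparisons were S100a8 and S100a9, at low levels. Their means were 1.05 and 0.697 CPM in WT, 2.10 and 2.47 in AMPK-KO, 2.28 and 0.722 in Early and 0.331 and 0.143 in Late. Csf3r, the other neutrophil marker called in AMPK-KO, had means of 96.5 CPM in WT and 154 in AMPK-KO and was not called in Late. The part of these shifts in the values of the NRF2 genes was not tested.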
